A study of Homo sapiens with 8 samples.

Results

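The histone genes described here are the 37 genes, of 13068 listed in both deposited tables, whose symbols name an H1, H2A, H2B, H3 or H4 histone of the replication-coupled gene clusters (29 genes, called cluster genes) or one of the separately encoded histone variants (8 genes, called replacement genes). The rule goes by symbol and by listing in both tables, and earlier results of these data were known when this gene group was picked. The second table lists 43 further histone genes of the same naming, 39 of the clusters and 4 replacement genes, which have no value in the first. Of these, 5 reached 1 FPKM in a library and the highest value was 2.39 FPKM. The need for both tables thus left out genes of low expression, and the 37 are not a set chosen without regard to level. RNA was sequenced from KG-1a, a human cell line of acute myeloid leukaemia that the labels assign to bone marrow and call leukaemia stem cells. A lentivirus had given the cells a hairpin RNA that targets NYNRIN (shNYNRIN, genotype NYNRIN-knockdown) or a control hairpin (shCTL, genotype WT), and they were isolated by FACS and were made into libraries with SMART-Seq v4, a kit for small RNA inputs. There were 4 libraries per group, in 2 tables that hold 2 libraries of each group. Replicates 1 and 2 of either group stand in the first table, named set 1 below, and replicates 3 and 4 in the second, named set 2. The labels name no clone and no hairpin sequence, and do not say whether replicates were separate cultures, so every p-value measures how these libraries spread, which can be technical.

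Cluster histone genes supply the histones that package newly copied DNA, and their transcription and the stability of their mRNA are tied to S phase. Their mRNAs normally end in a conserved stem-loop in place of a poly(A) tail, and the stem-loop binding protein SLBP handles them from processing to decay. Replacement genes are transcribed through the whole cell cycle from ordinary polyadenylated mRNAs, and their products are put into chromatin by chaperones of their own. SMART-Seq v4 starts cDNA from oligo(dT), so the levels below are those of the histone mRNA that such priming reaches, and total cluster histone mRNA was not measured.

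Values are read as FPKM, which counts fragments per length of gene and per library size. The column of shCTL replicate 3 holds whole numbers only and entered no test, so set 2 rests on 1 control library, shCTL replicate 4. In every set 2 test, and in every test of a difference between sets, the spread of that lone library was taken to be that of the other groups. The values of shCTL replicate 3 are printed beside the others, as listed. How deeply each library was sequenced is not stated in the labels or files. In the authors' deposited table the mean normalized count was below 100 for 20 of the 29 cluster genes, with a median of 58.7, while the 8 replacement genes had 2837 to 27520. Tests were made with limma on log2(FPKM + 1), over all 12939 genes that reached 1 FPKM in at least 2 libraries, with an adjusted p of 0.05 as the threshold. All 37 histone genes passed that filter, and fold changes on this scale understate the change of genes of a few FPKM.

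The targeted gene, NYNRIN, was lower in the shNYNRIN libraries of both sets. In set 1, NYNRIN had 6.98 and 7.30 FPKM in shNYNRIN replicates 1 and 2, against 12.2 and 12.5 FPKM in shCTL replicates 1 and 2. Set 2 gave NYNRIN 2.83 and 2.84 FPKM in shNYNRIN replicates 3 and 4, against 10.4 FPKM in shCTL replicate 4, and it was listed at 10 in shCTL replicate 3. In log2 fold change it stood at -0.71 (SE 0.052, limma adjusted p = 0.000984) in set 1 and -1.57 (SE 0.064, limma adjusted p = 0.000119) in set 2. Of the markers of the line, PTPRC, SPN, MYB, KIT and CD33 were each at 18.8 FPKM or above in the 7 tested libraries, but the stem cell marker CD34 stood at 1.42, 1.20, 0.765 and 0.681 FPKM in the shNYNRIN libraries and at 0.949, 0.933 and 1.79 FPKM in the 3 tested shCTL libraries. In the second table the highest of 3 fibroblast markers was 0.153 FPKM and the highest of 2 T cell markers 0.0213 FPKM. The 6 markers of the line summed to 219 to 249.7 FPKM in shNYNRIN libraries and 206 to 257 FPKM in shCTL libraries, while 0 of them rose and 3 fell in set 1 (PTPRC, SPN and MYB, at -0.32, -0.25 and -0.32 on the log2 scale) and 4 rose and 1 fell in set 2 (PTPRC, MYB, KIT and CD33 at 0.21, 0.34, 0.48 and 0.38, and CD34 at -0.69). B cell markers summed to 1.11 to 1.92 FPKM in shNYNRIN and 1.15 to 1.47 FPKM in shCTL libraries, and epithelial markers to 2.67 to 3.78 FPKM in shNYNRIN and 2.98 to 3.47 FPKM in shCTL libraries. The 3 erythroid markers summed to 56.8 to 63.2 FPKM in shNYNRIN libraries and 58.3 to 68.0 FPKM in shCTL libraries, with 1 called higher and 1 lower in set 2, and the part of other cell types in the results was not tested. In bulk RNA, fewer cells in a phase or of a type and less RNA per cell cannot be told apart.

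The classes differ in the sequence at the end of their mRNAs. The stem-loop was searched as 16 bases with 6 paired bases on each side of a loop of 4, within 100 bases after the stop codon in the GENCODE 29 transcripts (GRCh38). It was found in 16 of the 18 cluster genes whose model runs at least 50 bases past the stop codon, 23 to 56 bases after it, and in 1 of 8 replacement genes, H2AX. Of 19234 genes with as long a model, 0.244% held it, which is 47 genes, 29 of them histone genes of the same naming. H3C2 and H3C3 are named only, since their identifiers were not matched in this annotation. The models of H2BC12 and H1-2, the cluster genes of highest mean, end at the stop codon, so these genes could not be searched for the stem-loop. The stem-loops of 4 cluster genes with called changes, 1 per core family, and of H2AX follow, with the stem in capitals and the loop in lower case.
H2BC4 (chr6:26123472-26123487, minus strand): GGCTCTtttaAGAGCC
H2AC8 (chr6:26217417-26217432, plus strand): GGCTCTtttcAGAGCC
H3C10 (chr6:27810516-27810531, plus strand): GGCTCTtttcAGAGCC
H4C8 (chr6:26285131-26285146, minus strand): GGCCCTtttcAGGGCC
H2AX (chr11:119094898-119094913, minus strand): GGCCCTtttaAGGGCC
The stem of H2AX and H4C8 differs in letters from that of the H2A, H2B and H3 genes shown, but pairs in full. H2AX is known to give both a short stem-loop mRNA and a long polyadenylated one.

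Promoters were read from RefSeq windows (GRCh38.p14) of 250 bases before to 50 bases after each start, which 33 of the 37 genes had; H2AC12, H4C1 and H4C3 were among those without one. The octamer ATTTGCAT, searched on both strands, was in the window of 12 of 26 cluster genes (7 of 10 H2B genes, 5 of 7 H2A genes and none of the 9 H1, H3 and H4 genes), in 1 of 7 replacement genes (H3-3B) and in 1.77% of 35116 windows of all genes. Because neighbouring H2A and H2B genes are transcribed away from each other, 4 of the 9 octamer sites lie in the windows of a pair of genes. CCAAT was in a window of 23 of 26 cluster and 6 of 7 replacement genes, against 34.6% of all windows. TATAAA was in a window of 18 of 26 and 4 of 7 genes, against 11.5% of all windows. Some genes, such as H3-3A, had more than 1 window and were counted if any window matched. The shares of genes and of windows are therefore not like measures. Matches of different motifs did not overlap. The windows of 3 H2B genes with large changes, of H3C10, which has no octamer, and of H3-3B follow, with octamers and TATAAA (either strand) in capitals.
H2BC4 (chr6:26123877-26124176, minus strand): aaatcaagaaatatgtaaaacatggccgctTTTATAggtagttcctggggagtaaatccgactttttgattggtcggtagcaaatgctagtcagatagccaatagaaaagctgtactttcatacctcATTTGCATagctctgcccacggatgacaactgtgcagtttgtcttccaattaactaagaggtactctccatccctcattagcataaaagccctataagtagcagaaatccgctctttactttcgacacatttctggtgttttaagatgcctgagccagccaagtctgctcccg
H2BC12 (chr6:27146806-27147105, minus strand): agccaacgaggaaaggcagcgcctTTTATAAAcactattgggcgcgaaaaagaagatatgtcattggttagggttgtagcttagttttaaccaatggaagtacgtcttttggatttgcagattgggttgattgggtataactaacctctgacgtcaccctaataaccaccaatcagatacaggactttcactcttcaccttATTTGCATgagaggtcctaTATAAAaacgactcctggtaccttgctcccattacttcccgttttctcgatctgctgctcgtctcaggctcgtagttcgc
H2BC8 (chr6:26216639-26216938, minus strand): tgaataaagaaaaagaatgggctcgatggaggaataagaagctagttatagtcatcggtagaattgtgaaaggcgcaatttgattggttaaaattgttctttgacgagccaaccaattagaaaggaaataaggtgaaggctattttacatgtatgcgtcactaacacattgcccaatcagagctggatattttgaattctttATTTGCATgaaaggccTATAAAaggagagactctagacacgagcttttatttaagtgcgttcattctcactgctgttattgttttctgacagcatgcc
H3C10 (chr6:27809801-27810100, plus strand): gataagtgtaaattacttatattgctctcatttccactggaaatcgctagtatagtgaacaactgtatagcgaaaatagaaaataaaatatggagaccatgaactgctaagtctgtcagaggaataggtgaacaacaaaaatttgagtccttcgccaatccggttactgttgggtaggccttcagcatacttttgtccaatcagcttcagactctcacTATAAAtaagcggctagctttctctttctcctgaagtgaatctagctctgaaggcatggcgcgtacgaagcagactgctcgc
H3-3B (chr17:75779730-75780029, minus strand): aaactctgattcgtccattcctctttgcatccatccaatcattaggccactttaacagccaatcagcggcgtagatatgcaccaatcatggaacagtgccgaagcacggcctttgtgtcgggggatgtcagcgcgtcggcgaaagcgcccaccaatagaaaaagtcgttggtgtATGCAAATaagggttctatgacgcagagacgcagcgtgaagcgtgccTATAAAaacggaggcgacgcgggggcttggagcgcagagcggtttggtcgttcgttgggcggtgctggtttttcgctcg
A match is a run of letters and no measurement of binding.

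Cluster histone mRNA was higher with shNYNRIN in both sets, and replacement histone mRNA was not. The 29 cluster genes summed to 215.9, 195.6, 227 and 219 FPKM in shNYNRIN replicates 1 to 4, against 155, 153 and 123 FPKM in shCTL replicates 1, 2 and 4, and to 106 in the whole numbers of shCTL replicate 3. All 4 shNYNRIN sums lay above all shCTL sums. The 8 replacement genes summed to 1037, 1021, 1169 and 1168 FPKM in the shNYNRIN libraries, against 1212, 1222 and 1163 FPKM in those shCTL libraries and 1162 in shCTL replicate 3. They were lower with shNYNRIN in set 1 and close to the control library in set 2. As a percentage of the replacement sum, the cluster sum was 20.8%, 19.2%, 19.5% and 18.7% in shNYNRIN replicates 1 to 4, against 12.8%, 12.5% and 10.6% in shCTL replicates 1, 2 and 4 and 9.12% in shCTL replicate 3. The groups did not overlap on this measure, which is a description with no test. H2BC12 and H1-2 together made up 59.0% to 66.6% of the cluster sum in the 7 tested libraries. The other 27 cluster genes alone summed to 72.2, 77.2, 90.5 and 87.1 FPKM in the shNYNRIN libraries, against 57.9, 58.0 and 50.4 FPKM in the shCTL libraries.

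**Figure D1:**
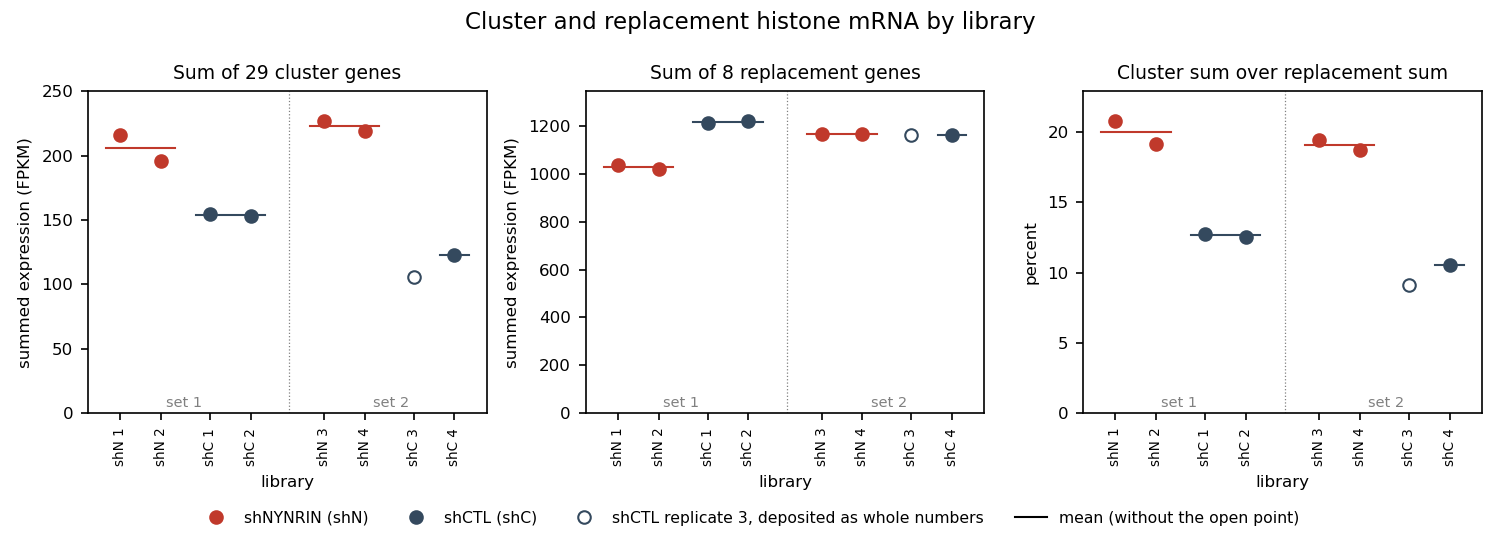
Summed FPKM of the 29 cluster genes (left) and of the 8 replacement genes (middle), and the cluster sum as a percentage of the replacement sum (right), per library; lines are means per group and set, and the open point is shCTL replicate 3, deposited as whole numbers. The percentage lies between 18.7 and 20.8 in the shNYNRIN libraries and at 12.8 or below in the shCTL libraries.

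Gene by gene, 8 of the 29 cluster genes rose and 0 fell in set 1, where 9.33% of all tested genes rose, 6.61% fell and 15.9% were called in either direction. In set 2, 13 rose and 0 fell, where 11.6% of all genes rose, 8.71% fell and 20.3% were called. The median log2 fold change of the cluster genes was 0.22 in set 1 and 0.50 in set 2, against 0.026 and 0.018 over all tested genes. Of the 8 replacement genes 0 rose and 5 fell in set 1 (median -0.13), and 3 rose and 1 fell in set 2 (median 0.012). The effect of shNYNRIN differed between the sets for 7 cluster genes, each higher in set 2, and for 6 replacement genes, 5 higher and 1 lower, where 20.4% of all genes were called. Over both classes, the 13 calls of set 1 were 5 to 8 with any 1 of the 6 libraries that could be left out removed, shCTL replicate 2 giving the fewest. The 17 calls of set 2 were 7 without shNYNRIN replicate 3 and 11 without shNYNRIN replicate 4. A single effect fitted to both sets called 0 of the 37 by limma, with 0.317% of all genes called. At an unadjusted limma p under 0.05 were 17 of the 37 (14 cluster genes, all higher, and 3 replacement genes). Of all 12939 tested genes, 2423 were under that unadjusted p, 1575 of them higher. Without shCTL replicate 4, so that set 1 alone informs that effect, 13 of the 37 were called. Without regard to any model, 10 cluster genes lay higher in all 4 shNYNRIN libraries than in all 3 tested shCTL libraries (H1-2, H2AC6, H2AC11, H2AC13, H2BC4, H2BC11, H2BC12, H3C6, H3C10 and H4C8), as did 10.7% of all tested genes, and 0 lay lower throughout. Of the replacement genes 1, H2AX, lay lower throughout, as did 5.51% of all genes.

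**Figure D2:**
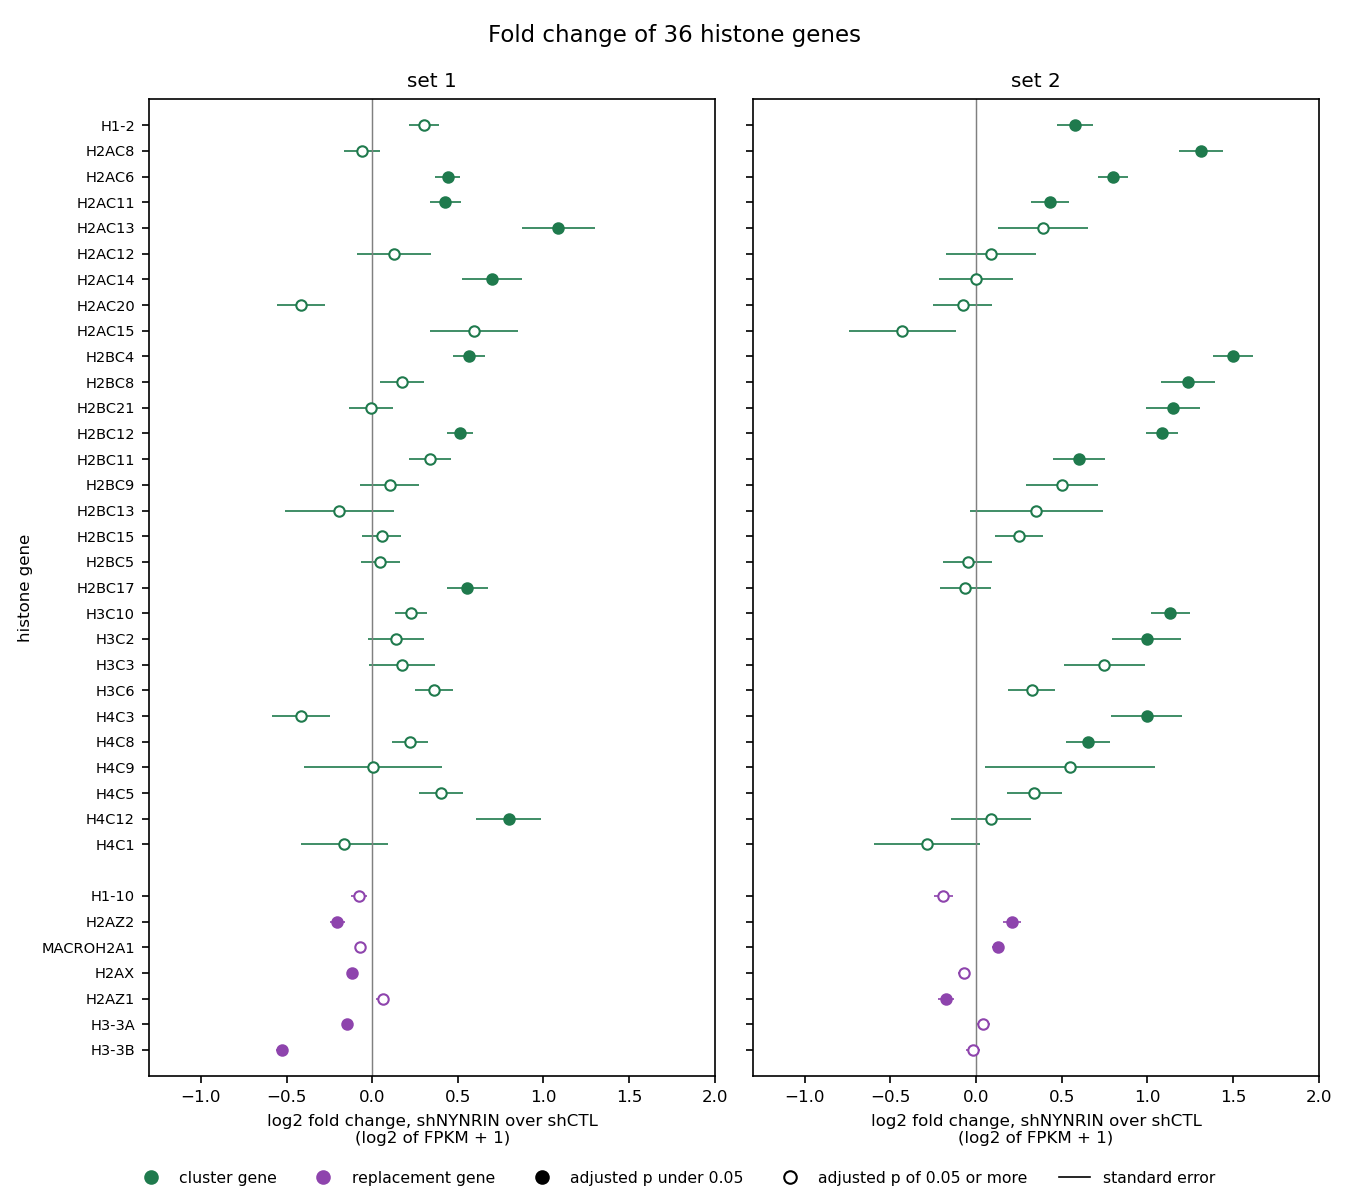
Log2 fold change (shNYNRIN over shCTL, log2 of FPKM + 1) with its standard error for 36 histone genes in set 1 (left) and set 2 (right); filled points have a limma adjusted p under 0.05. The 8 and 13 called cluster genes all lie right of 0, and the called replacement genes drawn for set 1 lie left of it.

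Of the linker histones in the clusters, H1-2, which encodes the H1.2 protein that binds DNA between nucleosomes, was the only one in both tables. In set 1, H1-2 had 53.1 and 43.1 FPKM in shNYNRIN replicates 1 and 2, against 38.8 and 38.4 FPKM in shCTL replicates 1 and 2. Set 2 gave H1-2 52.04 and 49.6 FPKM in shNYNRIN replicates 3 and 4, against 33.7 FPKM in shCTL replicate 4, and it was listed at 31 in shCTL replicate 3. All 4 shNYNRIN values lay above all shCTL values. The log2 fold change came to 0.30 (SE 0.087, limma adjusted p = 0.0597) in set 1, short of the threshold, and 0.58 (SE 0.11, limma adjusted p = 0.0122) in set 2, where the call was lost without shNYNRIN replicate 3 (limma adjusted p = 0.0583). The set 1 change passed under 4 alternatives, without shNYNRIN replicate 2 among them (limma adjusted p of 0.00703 to 0.0401). The gene is a single exon on chromosome 6 from 26055787 to 26056428 on the minus strand (GRCh38, as for all genes below).

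H2B genes, whose products pair with H2A in the nucleosome core, held the highest cluster gene and the largest change. H2BC12 lies on chromosome 6 from 27146418 to 27146798 on the minus strand, as a single exon. In set 1, H2BC12 had 90.6 and 75.4 FPKM in shNYNRIN replicates 1 and 2, against 58.2 and 56.9 FPKM in shCTL replicates 1 and 2. Set 2 gave H2BC12 84.8 and 82.2 FPKM in shNYNRIN replicates 3 and 4, against 38.8 FPKM in shCTL replicate 4, and it was listed at 39 in shCTL replicate 3. The groups did not overlap in either set, and the shNYNRIN libraries of the sets were alike while the shCTL libraries were lower in set 2. H2BC12 rose by 0.51 (SE 0.077, limma adjusted p = 0.00885) in set 1 and by 1.09 (SE 0.095, limma adjusted p = 0.000956) in set 2, and the difference between the sets was 0.57 (SE 0.12, limma adjusted p = 0.0195). Without shCTL replicate 2 the set 1 adjusted p was 0.0533, and the difference was lost with any 1 of shCTL replicate 1 and shNYNRIN replicates 3 and 4 removed (limma adjusted p up to 0.0645).

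H2BC4 had the largest fold change of the 37 genes in set 2. In set 1, H2BC4 had 3.45 and 4.22 FPKM in shNYNRIN replicates 1 and 2, against 2.31 and 2.21 FPKM in shCTL replicates 1 and 2. Set 2 gave H2BC4 5.10 and 5.06 FPKM in shNYNRIN replicates 3 and 4, against 1.15 FPKM in shCTL replicate 4, and it was listed at 2 in shCTL replicate 3. Its shNYNRIN values were above the shCTL values in both sets, by more in set 2, although the whole-number library was listed above shCTL replicate 4. The log2 fold change was 0.57 (SE 0.095, limma adjusted p = 0.0122) in set 1 and 1.501 (SE 0.12, limma adjusted p = 0.000661) in set 2, with a difference of 0.94 (SE 0.15, limma adjusted p = 0.00747). The set 1 call was lost without shCTL replicate 1 or 2 (limma adjusted p up to 0.0675), and the difference was lost with shCTL replicate 3 included as deposited (limma adjusted p = 0.0522) or with 0.5 added to its values (limma adjusted p = 0.164).

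H2BC8 and H2BC21 changed in set 2. In set 1, H2BC8 had 4.84 and 3.51 FPKM in shNYNRIN replicates 1 and 2, against 3.64 and 3.46 FPKM in shCTL replicates 1 and 2. Set 2 gave H2BC8 6.59 and 5.71 FPKM in shNYNRIN replicates 3 and 4, against 2.03 FPKM in shCTL replicate 4, and it was listed at 2 in shCTL replicate 3. In set 1 the H2BC8 values overlapped. H2BC21, one of the 2 cluster genes on chromosome 1, showed the same layout. In set 1, H2BC21 had 3.97 and 4.71 FPKM in shNYNRIN replicates 1 and 2, against 5.04 and 3.75 FPKM in shCTL replicates 1 and 2. Set 2 gave H2BC21 10.3 and 9.21 FPKM in shNYNRIN replicates 3 and 4, against 3.84 FPKM in shCTL replicate 4, and it was listed at 3 in shCTL replicate 3. In set 2 the shNYNRIN libraries were at 9.21 FPKM or above and every other library of either set was at or below 5.04 FPKM. On the log2 scale H2BC8 stood at 0.17 (SE 0.13, limma adjusted p = 0.4) in set 1 and 1.24 (SE 0.16, limma adjusted p = 0.00325) in set 2, differing by 1.06 (SE 0.20, limma adjusted p = 0.0137). H2BC21 had -0.01 (SE 0.13, limma adjusted p = 0.976) in set 1 and 1.15 (SE 0.16, limma adjusted p = 0.00412) in set 2, differing by 1.16 (SE 0.20, limma adjusted p = 0.0101).

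Of the other H2B genes, H2BC17 was called in set 1. In set 1, H2BC17 had 2.27 and 2.29 FPKM in shNYNRIN replicates 1 and 2, against 1.01 and 1.48 FPKM in shCTL replicates 1 and 2. Set 2 gave H2BC17 2.26 and 2.15 FPKM in shNYNRIN replicates 3 and 4, against 2.34 FPKM in shCTL replicate 4, and it was listed at 1 in shCTL replicate 3. Its set 2 values lay just below the control value, and its log2 fold change was 0.56 (SE 0.12, limma adjusted p = 0.0273) in set 1 and -0.06 (SE 0.15, limma adjusted p = 0.816) in set 2, with a difference that did not pass (limma adjusted p = 0.0657). The set 1 call was lost without shCTL replicate 1 or any 1 of the 4 shNYNRIN libraries (limma adjusted p up to 0.0992). H2BC11 rose in set 2 with 0.60 (SE 0.15, limma adjusted p = 0.0339), and not without shNYNRIN replicate 3 (limma adjusted p = 0.125). H2BC5, H2BC9, H2BC13 and H2BC15, at means of 1.05 to 2.74 FPKM, were called in neither set.

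Of the H2A genes of the clusters 4 of 8 rose in set 1 and 3 of 8 in set 2, beside 3 and 5 of 10 H2B genes, and the families were not tested against each other. H2AC6 had the highest mean, 6.48 FPKM, and rose in both sets. In set 1, H2AC6 had 8.49 and 7.48 FPKM in shNYNRIN replicates 1 and 2, against 5.60 and 5.63 FPKM in shCTL replicates 1 and 2. Set 2 gave H2AC6 7.49 and 6.96 FPKM in shNYNRIN replicates 3 and 4, against 3.72 FPKM in shCTL replicate 4, and it was listed at 4 in shCTL replicate 3. The groups did not overlap in either set. The log2 fold change of H2AC6 was 0.44 (SE 0.072, limma adjusted p = 0.0115) in set 1 and 0.80 (SE 0.088, limma adjusted p = 0.00189) in set 2. Without shCTL replicate 1 or 2 the set 1 call was lost (limma adjusted p up to 0.0600).

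H2AC8 rose in set 2. In set 1, H2AC8 had 2.87 and 2.39 FPKM in shNYNRIN replicates 1 and 2, against 2.57 and 2.996 FPKM in shCTL replicates 1 and 2. Set 2 gave H2AC8 5.52 and 4.97 FPKM in shNYNRIN replicates 3 and 4, against 1.51 FPKM in shCTL replicate 4, and it was listed at 1 in shCTL replicate 3. The set 1 values overlapped, and in set 2 both shNYNRIN values were above every other library of either set. The fitted log2 fold change was -0.06 (SE 0.10, limma adjusted p = 0.736) in set 1 and 1.31 (SE 0.13, limma adjusted p = 0.00122) in set 2, and the difference was 1.37 (SE 0.16, limma adjusted p = 0.00256), a call that held with each of the 6 libraries other than shCTL replicate 4 left out in turn.

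H2AC11 was called in both sets. In set 1, H2AC11 had 3.94 and 3.82 FPKM in shNYNRIN replicates 1 and 2, against 2.91 and 2.37 FPKM in shCTL replicates 1 and 2. Set 2 gave H2AC11 3.57 and 3.54 FPKM in shNYNRIN replicates 3 and 4, against 2.38 FPKM in shCTL replicate 4, and it was listed at 1 in shCTL replicate 3. The groups did not overlap. Its log2 fold change was 0.43 (SE 0.091, limma adjusted p = 0.0257) in set 1 and 0.43 (SE 0.11, limma adjusted p = 0.0374) in set 2. Both calls rested on single libraries: the first was lost without any 1 of shCTL replicate 2 and the 4 shNYNRIN libraries (limma adjusted p up to 0.108), and the second with either shNYNRIN library of set 2 removed (limma adjusted p up to 0.127).

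H2AC13 and H2AC14 rose in set 1. In set 1, H2AC13 had 5.57 and 4.49 FPKM in shNYNRIN replicates 1 and 2, against 2.55 and 1.25 FPKM in shCTL replicates 1 and 2. Set 2 gave H2AC13 3.31 and 4.10 FPKM in shNYNRIN replicates 3 and 4, against 2.58 FPKM in shCTL replicate 4, and it was listed at 1 in shCTL replicate 3. H2AC13 was higher in every shNYNRIN library than in every shCTL library, at a log2 shift of 1.09 (SE 0.21, limma adjusted p = 0.0202) in set 1, the largest of the 37 there, and 0.39 (SE 0.26, limma adjusted p = 0.35) in set 2. In set 1, H2AC14 had 1.72 and 1.65 FPKM in shNYNRIN replicates 1 and 2, against 0.405 and 0.951 FPKM in shCTL replicates 1 and 2. Set 2 gave H2AC14 1.35 and 1.73 FPKM in shNYNRIN replicates 3 and 4, against 1.53 FPKM in shCTL replicate 4, and it was listed at 1 in shCTL replicate 3. H2AC14 had 0.70 (SE 0.18, limma adjusted p = 0.0411) in set 1, while its set 2 values lay around the control value. The coding sequences of these genes are 96.4% identical, so reads may have been split between them. The H2AC13 call was lost with either of shCTL replicate 2 and shNYNRIN replicate 1 removed (limma adjusted p up to 0.0785). That of H2AC14 was lost without shCTL replicate 1 or any 1 of the 4 shNYNRIN libraries (limma adjusted p up to 0.137).

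In 6 pairs of an H2B and an H2A gene, both measured, the genes lie side by side and are transcribed away from each other. H2BC4 and H2AC6, 218 bases apart, rose together in both sets. H2BC8 and H2AC8, 282 bases apart, rose together in set 2, by 1.24 and 1.31, and neither was called in set 1. H2BC11 and H2AC11, 291 bases apart, rose together in set 2. In the other pairs at most 1 gene was called: beside H2BC12 lies H2AC12, 330 bases away, at log2 fold changes of 0.13 and 0.08 in sets 1 and 2 and a mean of 0.899 FPKM, and beside H2BC21 lies H2AC20, 322 bases away, at -0.42 and -0.08, and neither H2A gene was called. H2AC13 rose in set 1 and its neighbour H2BC13, 267 bases away, was called in neither set. Whether the authors' counting used strand is not stated in the labels or files.

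The 4 cluster H3 genes measured in both sets encode the replication-coupled H3.1 protein, and H3C10 had the highest mean of the 4. In set 1, H3C10 had 5.41 and 4.50 FPKM in shNYNRIN replicates 1 and 2, against 3.82 and 4.33 FPKM in shCTL replicates 1 and 2. Set 2 gave H3C10 5.91 and 6.09 FPKM in shNYNRIN replicates 3 and 4, against 2.19 FPKM in shCTL replicate 4, and it was listed at 2 in shCTL replicate 3. The groups did not overlap in either set. On the log2 scale H3C10 stood at 0.23 (SE 0.093, limma adjusted p = 0.145) in set 1 and 1.13 (SE 0.11, limma adjusted p = 0.00142) in set 2, with a difference of 0.91 (SE 0.15, limma adjusted p = 0.00795). In set 1, H3C2 had 1.42 and 1.71 FPKM in shNYNRIN replicates 1 and 2, against 1.05 and 1.63 FPKM in shCTL replicates 1 and 2. Set 2 gave H3C2 2.06 and 1.57 FPKM in shNYNRIN replicates 3 and 4, against 0.408 FPKM in shCTL replicate 4, and it was listed at 0 in shCTL replicate 3. H3C2 overlapped between groups in set 1 and was above its control in set 2, at a log2 shift of 0.995 (SE 0.20, limma adjusted p = 0.0166) there, lost without shNYNRIN replicate 3 (limma adjusted p = 0.0761). H3C3 and H3C6 were called in neither set as reported, at 0.17 and 0.36 in set 1 and 0.75 and 0.32 in set 2. However, H3C3 passed in set 2 under 5 alternatives, without shCTL replicate 1 or 2 and with shCTL replicate 3 included among them (limma adjusted p of 0.0115 to 0.0406). Without the mean-variance trend H3C6 passed in set 1 (limma adjusted p = 0.0354) and in set 2. With 0.5 added to shCTL replicate 3 it also passed in set 2 (limma adjusted p = 0.0420).

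H4 genes encode the same H4 protein, and 1 of 6 rose in set 1 and 2 in set 2. H4C12 was the one in set 1. In set 1, H4C12 had 2.27 and 3.34 FPKM in shNYNRIN replicates 1 and 2, against 1.05 and 1.29 FPKM in shCTL replicates 1 and 2. Set 2 gave H4C12 1.21 and 1.97 FPKM in shNYNRIN replicates 3 and 4, against 1.41 FPKM in shCTL replicate 4, and it was listed at 0 in shCTL replicate 3. Its set 1 groups did not overlap, its set 2 groups did, and its log2 fold change in set 1 was 0.80 (SE 0.19, limma adjusted p = 0.0345). Its coding sequence is 100% identical to that of H4C11, so its reads cannot be assigned with certainty, and the call was lost with any 1 of shCTL replicates 1 and 2 and shNYNRIN replicate 2 removed (limma adjusted p up to 0.139).

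H4C3 lay on opposite sides of its controls in the sets. In set 1, H4C3 had 0.524 and 0.555 FPKM in shNYNRIN replicates 1 and 2, against 1.16 and 0.941 FPKM in shCTL replicates 1 and 2. Set 2 gave H4C3 3.28 and 2.13 FPKM in shNYNRIN replicates 3 and 4, against 0.837 FPKM in shCTL replicate 4, and it was listed at 1 in shCTL replicate 3. The shNYNRIN libraries were the lowest of all in set 1 and the highest of all in set 2. In log2 fold change it stood at -0.41 (SE 0.17, limma adjusted p = 0.146), not called, in set 1 and 0.995 (SE 0.21, limma adjusted p = 0.0184) in set 2, and the difference was 1.41 (SE 0.27, limma adjusted p = 0.0135). The set 2 call was lost without shNYNRIN replicate 3 (limma adjusted p = 0.0679). H4C8 rose in set 2 with 0.65 (SE 0.13, limma adjusted p = 0.0146), lost with either shNYNRIN library of set 2 removed (limma adjusted p up to 0.0739).

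H4C1, the H4 gene of highest mean, was called in neither set. In set 1, H4C1 had 2.41 and 4.69 FPKM in shNYNRIN replicates 1 and 2, against 4.64 and 3.32 FPKM in shCTL replicates 1 and 2. Set 2 gave H4C1 3.55 and 4.90 FPKM in shNYNRIN replicates 3 and 4, against 5.32 FPKM in shCTL replicate 4, and it was listed at 4 in shCTL replicate 3. The set 1 groups overlapped, and in set 2 the control library was the highest. The log2 fold change came to -0.16 (SE 0.25, limma adjusted p = 0.702) in set 1 and -0.29 (SE 0.31, limma adjusted p = 0.575) in set 2, so that neither a rise nor a fall was detectable at this spread. H4C5 and H4C9 were called in neither set. Over the coding sequence, the nearest copy of a cluster gene was 90.9% identical in the median H2A gene and 93.0% in the median H2B gene, and neither labels nor files state how reads shared between copies were counted.

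**Figure D3:**
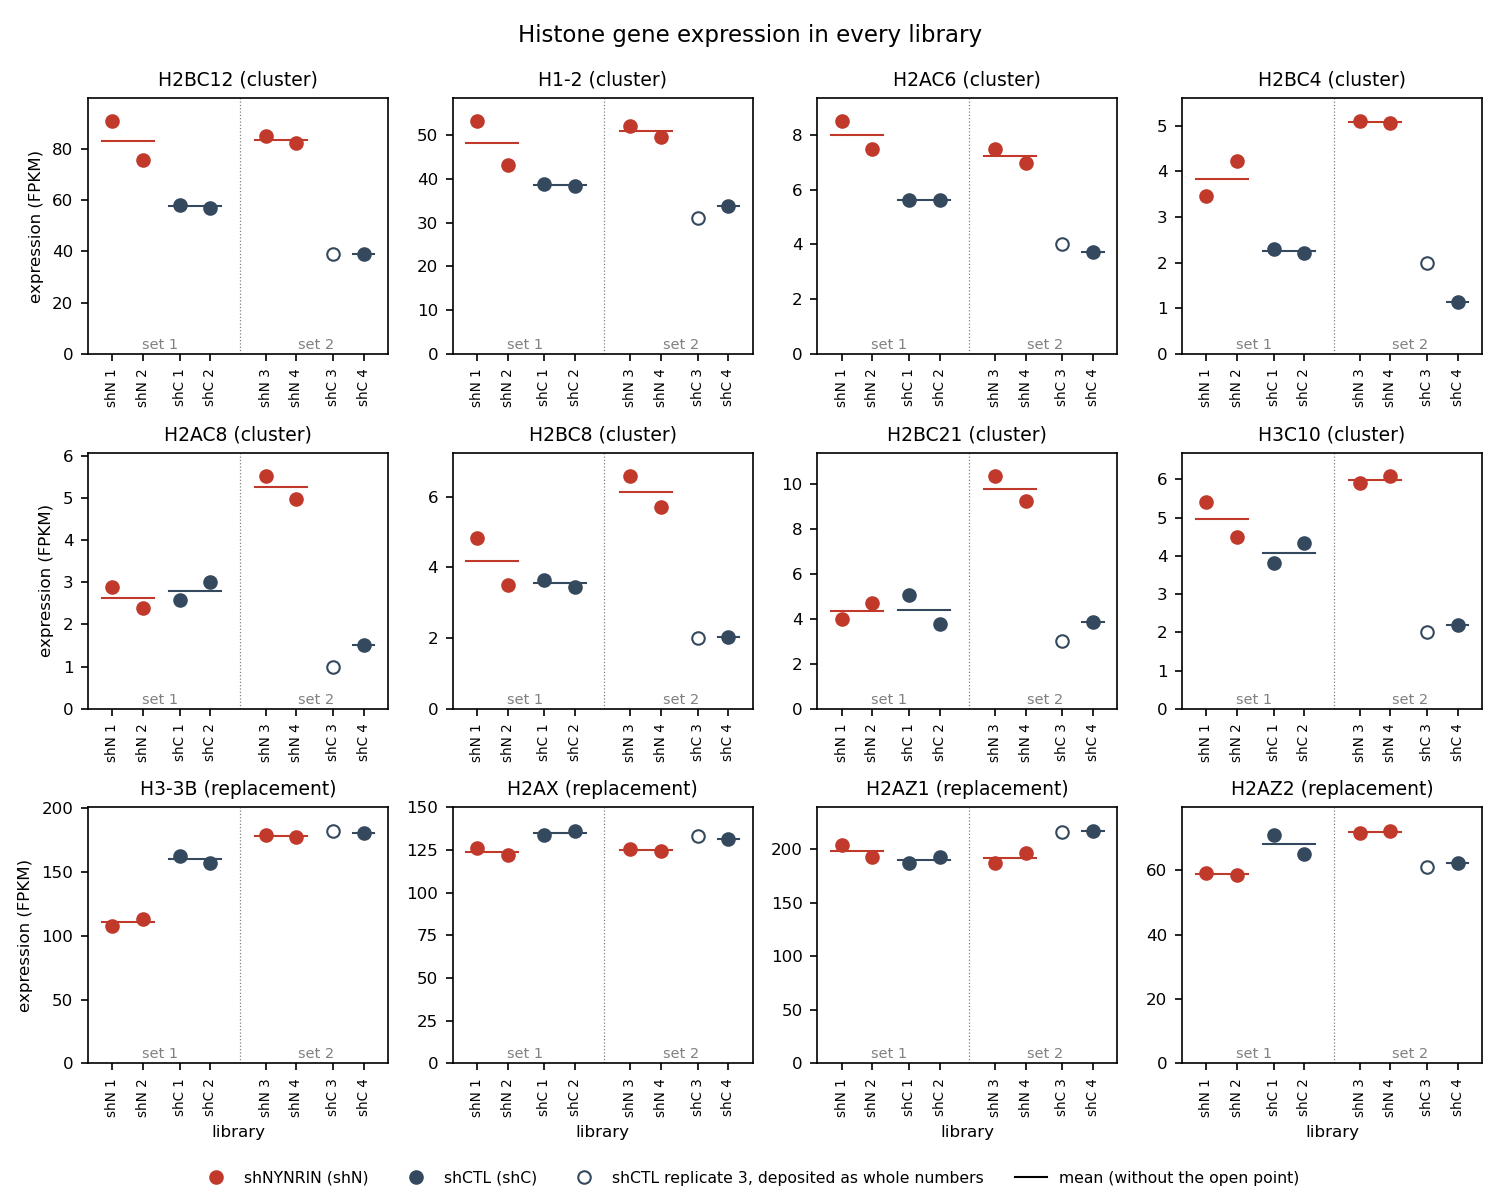
FPKM of 8 cluster and 4 replacement histone genes in every library, with shNYNRIN (shN) left of shCTL (shC) in each set; lines are means, and the open point is shCTL replicate 3, deposited as whole numbers. H2BC12 lies at 75.4 FPKM or above in the shNYNRIN libraries and at 58.2 or below in the shCTL libraries, while H3-3B and H2AZ2 lie below their controls with shNYNRIN in set 1.

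H1-10, a linker histone encoded outside the clusters, was called in neither set as reported. In set 1, H1-10 had 46.9 and 46.9 FPKM in shNYNRIN replicates 1 and 2, against 50.9 and 48.2 FPKM in shCTL replicates 1 and 2. Set 2 gave H1-10 44.8 and 48.4 FPKM in shNYNRIN replicates 3 and 4, against 53.3 FPKM in shCTL replicate 4, and it was listed at 51 in shCTL replicate 3. The shNYNRIN values lay below the shCTL values in each set. The fitted log2 fold change was -0.08 (SE 0.046, limma adjusted p = 0.291) in set 1 and -0.19 (SE 0.056, limma adjusted p = 0.055) in set 2. Set 2 passed the threshold under 4 alternatives, the 10 FPKM filter, both ways of including shCTL replicate 3 and upper-quartile scaling (limma adjusted p of 0.0224 to 0.0404).

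H3-3A and H3-3B encode the same H3.3 protein, the replacement H3 laid down at active genes and telomeres outside replication. In set 1, H3-3B had 108 and 113 FPKM in shNYNRIN replicates 1 and 2, against 162 and 157 FPKM in shCTL replicates 1 and 2. Set 2 gave H3-3B 179 and 177 FPKM in shNYNRIN replicates 3 and 4, against 180.4 FPKM in shCTL replicate 4, and it was listed at 182 in shCTL replicate 3. H3-3B fell in set 1, and in set 2 the shNYNRIN libraries lay just below the control. Its log2 fold change was -0.53 (SE 0.032, limma adjusted p = 0.000487) in set 1 and -0.02 (SE 0.039, limma adjusted p = 0.791) in set 2, and the difference was 0.51 (SE 0.050, limma adjusted p = 0.00145); the set 1 call and the difference held with each of the 6 libraries other than shCTL replicate 4 left out. In set 1, H3-3A had 275 and 271 FPKM in shNYNRIN replicates 1 and 2, against 295 and 309 FPKM in shCTL replicates 1 and 2. Set 2 gave H3-3A 278 and 270.2 FPKM in shNYNRIN replicates 3 and 4, against 266 FPKM in shCTL replicate 4, and it was listed at 268 in shCTL replicate 3. H3-3A, the highest of the 37 genes at a mean of 281 FPKM, had -0.15 (SE 0.031, limma adjusted p = 0.025) in set 1 and 0.04 (SE 0.038, limma adjusted p = 0.491) in set 2, with a difference of 0.19 (SE 0.049, limma adjusted p = 0.038). Its set 1 call was lost with any 1 of shCTL replicate 2 and shNYNRIN replicates 1, 2 and 3 removed (limma adjusted p up to 0.117), and the difference without shCTL replicate 2 or any 1 shNYNRIN library (limma adjusted p up to 0.124).

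H2AX, the H2A variant that is phosphorylated beside DNA breaks, was lower in all 4 shNYNRIN libraries. In set 1, H2AX had 126 and 122 FPKM in shNYNRIN replicates 1 and 2, against 134 and 136 FPKM in shCTL replicates 1 and 2. Set 2 gave H2AX 126 and 125 FPKM in shNYNRIN replicates 3 and 4, against 132 FPKM in shCTL replicate 4, and it was listed at 133 in shCTL replicate 3. The fall was small, at a log2 shift of -0.12 (SE 0.028, limma adjusted p = 0.0333) in set 1 and -0.07 (SE 0.035, limma adjusted p = 0.198), not called, in set 2. The set 1 call was lost with either control library of set 1 or any 1 shNYNRIN library other than replicate 1 removed (limma adjusted p up to 0.155).

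H2AZ1 and H2AZ2 encode 2 forms of H2A.Z, the variant found beside promoters. In set 1, H2AZ1 had 204 and 193 FPKM in shNYNRIN replicates 1 and 2, against 187 and 193 FPKM in shCTL replicates 1 and 2. Set 2 gave H2AZ1 187 and 196 FPKM in shNYNRIN replicates 3 and 4, against 217 FPKM in shCTL replicate 4, and it was listed at 216 in shCTL replicate 3. The set 1 shNYNRIN values of H2AZ1 were level with or above the controls and those of set 2 were below. In set 1, H2AZ2 had 59.2 and 58.6 FPKM in shNYNRIN replicates 1 and 2, against 70.9 and 65.2 FPKM in shCTL replicates 1 and 2. Set 2 gave H2AZ2 71.7 and 72.3 FPKM in shNYNRIN replicates 3 and 4, against 62.1 FPKM in shCTL replicate 4, and it was listed at 61 in shCTL replicate 3. H2AZ2 did the reverse. On the log2 scale H2AZ1 stood at 0.06 (SE 0.038, limma adjusted p = 0.315) in set 1 and -0.18 (SE 0.046, limma adjusted p = 0.0375) in set 2, with a difference of -0.24 (SE 0.060, limma adjusted p = 0.0332). H2AZ2 had -0.20 (SE 0.042, limma adjusted p = 0.0237) in set 1 and 0.21 (SE 0.052, limma adjusted p = 0.0319) in set 2, with a difference of 0.41 (SE 0.067, limma adjusted p = 0.00774). The set 2 call of H2AZ1 was lost with any 1 control library of set 1 or shNYNRIN library of set 2 removed (limma adjusted p up to 0.151), and its difference without any 1 of these or shNYNRIN replicate 1 (limma adjusted p up to 0.101). For H2AZ2 the set 1 call was lost without shCTL replicate 1 or any 1 shNYNRIN library (limma adjusted p up to 0.0848), the set 2 call was lost with either shNYNRIN library of set 2 removed (limma adjusted p up to 0.119), and the difference held with each of those 6 libraries left out.

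MACROH2A1 is an H2A variant with a large extra domain that is enriched on silent chromatin. In set 1, MACROH2A1 had 63.6 and 62.3 FPKM in shNYNRIN replicates 1 and 2, against 65.7 and 66.6 FPKM in shCTL replicates 1 and 2. Set 2 gave MACROH2A1 65.4 and 65.2 FPKM in shNYNRIN replicates 3 and 4, against 59.7 FPKM in shCTL replicate 4, and it was listed at 60 in shCTL replicate 3. It was slightly below the controls in set 1 and above them in set 2, at log2 fold changes of -0.07 (SE 0.028, limma adjusted p = 0.137) and 0.13 (SE 0.035, limma adjusted p = 0.0441), with a difference of 0.20 (SE 0.045, limma adjusted p = 0.0237). The set 2 call and the difference were lost with any 1 control library of set 1 or shNYNRIN library of set 2 removed (limma adjusted p up to 0.157 and 0.0840).

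The authors' deposited table, which covers set 1, gives a q-value under 0.05 to 4 cluster genes, H1-2, H2AC6, H2AC13 and H2BC12, all higher in shNYNRIN, with log2 fold changes of 0.29, 0.48, 1.37 and 0.50 in that table. It lists a q-value of 1 for 13 of the 29. A column of calls there also marks H2AC14, H2BC4, H3C6 and H4C12 as up, though their q-values were above 0.05. Of the replacement genes the authors' deposited table has 6 lower with a q-value under 0.05, among them H3-3B at -0.56, with -0.24 for H2AZ2, -0.18 for H3-3A, -0.15 for H2AX and -0.10 for MACROH2A1. The share of all genes under that q-value is not given here, so neither count can be set against a background.

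Most genes of S phase, in which cluster histone mRNA normally peaks, were lower with shNYNRIN in set 2. Of 18 S phase genes, 3 rose and 5 fell in set 1 (median log2 fold change -0.07), and 0 rose and 15 fell in set 2 (median -0.45). Over all tested genes 15.9% were called in set 1 and 20.3% in set 2, with medians of 0.026 and 0.018, and the difference between this list and the cluster genes was not tested. Thymidylate synthase, TYMS, had -1.54 (SE 0.071, limma adjusted p = 0.000171) in set 2 and the helicase subunit MCM6 had -0.63 (SE 0.034, limma adjusted p = 0.000275). In set 1 MCM6 was higher, at 0.34 (SE 0.028, limma adjusted p = 0.00168). Of 10 genes of G2 and M phase, 8 rose and 0 fell in set 1 (median 0.27), among them CDC20 at 0.52 (SE 0.044, limma adjusted p = 0.00169), CCNB1 at 0.51 (SE 0.036, limma adjusted p = 0.000957) and the survivin gene BIRC5 at 0.40 (SE 0.045, limma adjusted p = 0.00396). In set 2, 1 rose and 1 fell (median -0.01). The part of the cell cycle in the histone results was not tested.

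Among 14 measured genes for histone mRNA 3′ end formation and turnover, 3 rose and 0 fell in set 1 (median 0.08), and 0 rose and 5 fell in set 2 (median -0.06). The decay helicase UPF1 had 0.38 (SE 0.042, limma adjusted p = 0.00391) in set 1, and in set 2 the cap-binding subunit NCBP1 had -0.37 (SE 0.053, limma adjusted p = 0.00493) and its partner SRRT had -0.35 (SE 0.045, limma adjusted p = 0.00312). SRRT was called in the other direction in set 1, at 0.16 (SE 0.037, limma adjusted p = 0.0306). SLBP, named for its role after its values were seen, had 119 and 119 FPKM in shNYNRIN replicates 1 and 2, against 114 and 117 FPKM in shCTL replicates 1 and 2, and 102 and 99.7 FPKM in shNYNRIN replicates 3 and 4, against 112 FPKM in shCTL replicate 4. In log2 fold change it stood at 0.04 (SE 0.028, limma adjusted p = 0.328) in set 1 and -0.14 (SE 0.034, limma adjusted p = 0.0266) in set 2. Among 11 genes for the supply and assembly of replication-coupled histones, 0 rose and 1 fell in set 1 (median -0.0045), and 1 rose and 4 fell in set 2 (median -0.16), with CHAF1B, a subunit of the assembly factor CAF-1, at -0.39 (SE 0.052, limma adjusted p = 0.0039), CDAN1 at -0.27 (SE 0.070, limma adjusted p = 0.0362) and RBBP4 at -0.27 (SE 0.040, limma adjusted p = 0.00553). Among 13 genes for depositing replacement histones, 2 rose and 0 fell in set 1 (median 0.03), and 0 rose and 2 fell in set 2 (median -0.02). Of these, CABIN1 of the HIRA complex had 0.31 (SE 0.046, limma adjusted p = 0.00847) in set 1, the H2A.Z chaperone ANP32E had 0.13 (SE 0.030, limma adjusted p = 0.0342) in set 1 and -0.29 (SE 0.037, limma adjusted p = 0.00312) in set 2 and EP400 had -0.22 (SE 0.061, limma adjusted p = 0.0492) in set 2. These 3 lists had 3 of 14, 1 of 11 and 2 of 13 genes called in set 1 and 5 of 14, 5 of 11 and 2 of 13 in set 2, beside the 15.9% and 20.3% over all genes. CENPA, the centromeric H3 variant, was called in neither set, at -0.06 and 0.06.

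**Figure D4:**
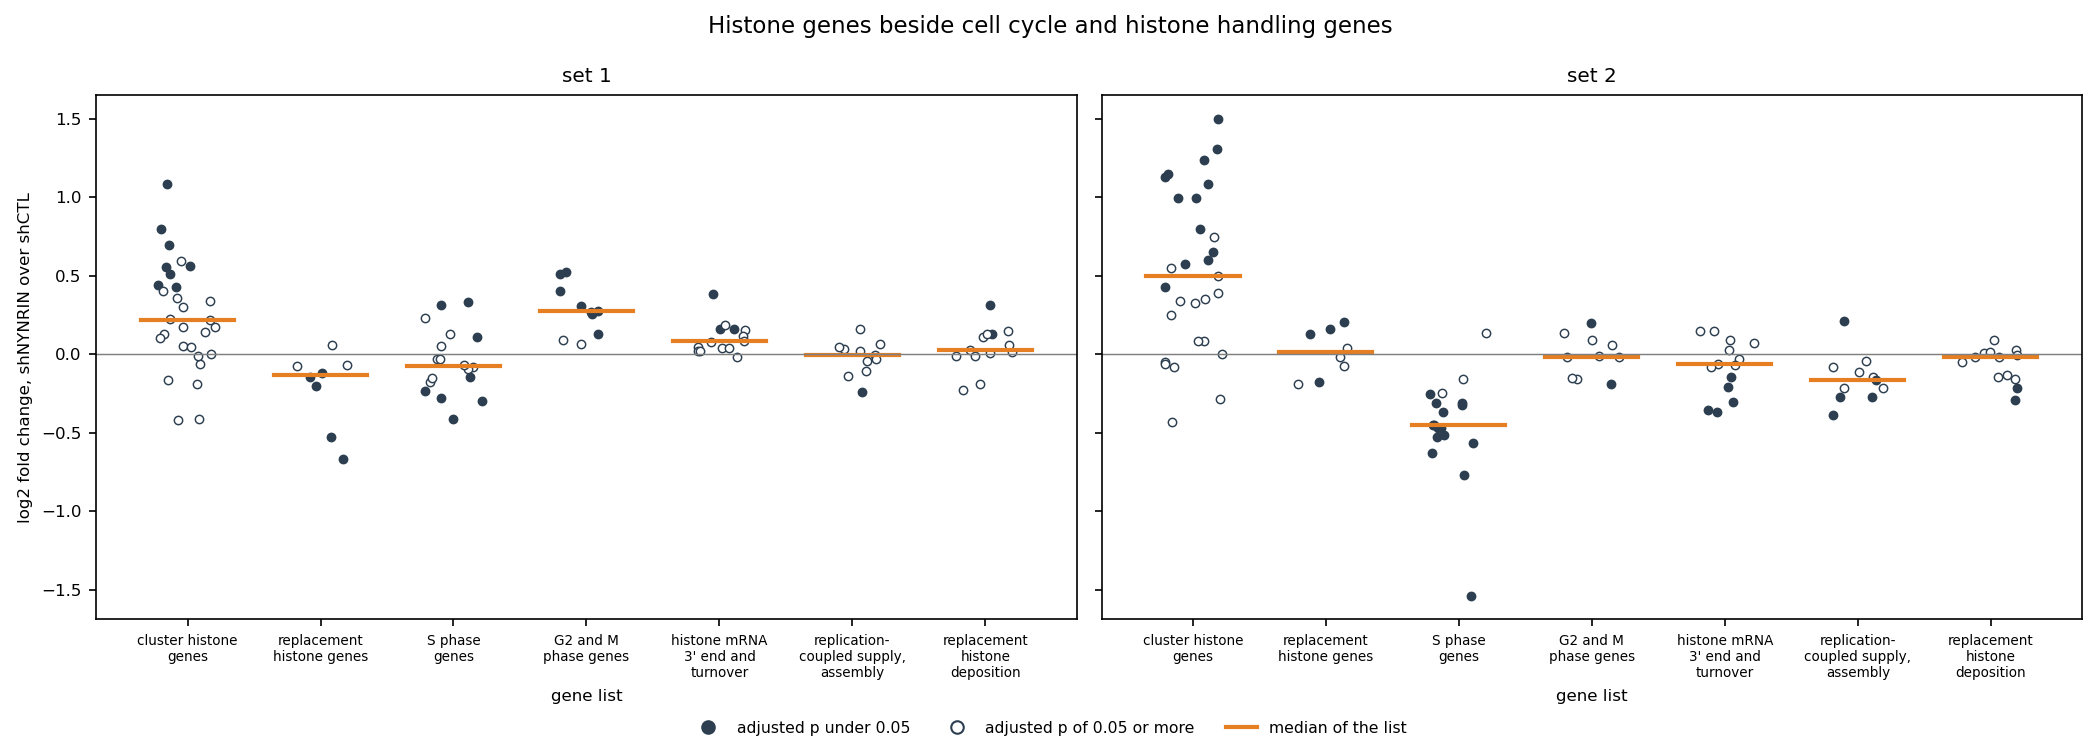
Log2 fold change (shNYNRIN over shCTL) of each measured gene in 7 lists, in set 1 (left) and set 2 (right); filled points have a limma adjusted p under 0.05 and orange lines are medians. In set 2 the cluster histone genes have a median of 0.50 and the S phase genes one of -0.45.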

How the data were processed

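RNA was measured by SMART-Seq v4 sequencing of KG-1a cells. The authors' tables hold FPKM per gene for 7 libraries; the header names no unit, so it was taken from the size of the values and from Cufflinks, which the submitters' processing notes list (Bowtie 0.12.9, Cufflinks 2.1.1, HTSeq, builds mm10 and hg38). Zeros appear as 0.001 in set 1. For shCTL replicate 3 the deposited values are a score, FPKM without decimals: it lists 102 genes at 0 of the 129 that lie between 0.5 and 0.9 FPKM in both shCTL replicate 4 and shNYNRIN replicate 3. For set 1 the authors also deposited a mean normalized count per gene (a signal, summing to 38530000), a log2 fold change, a p-value and a q-value. The labels and files state no alignment settings, annotation, strand setting or depth per library, and counting intervals could not be made.

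From these, log2(FPKM + 1) of genes with 1 FPKM or more in at least 2 libraries was fitted in limma 3.58.1 (R 4.3.3) with the mean-variance trend, for hairpin within each set, the difference between sets, and 1 effect with group and table as terms, with Benjamini-Hochberg adjustment over 12939 genes. Groups came from the sample titles; library names number shCTL replicates 1, 2, 3 and 4 as 3, 4, 1 and 2. Values in every library are given for called histone genes (at most 8 per class and contrast), the highest cluster gene of each family, and the replacement genes; other lists give up to 3 called genes. The rule for the histone genes uses symbols and listing in both tables, and it and the lists were chosen with earlier results of these data known. Some items that this rule names are counted in group results but not reported here. The fit was tested on simulated data. The alternatives tried were other pseudocounts, filters, scalings, treatments of shCTL replicate 3, libraries left out and sums.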

Additional observations from a re-analysis of the deposited data

Results flagged for a closer look

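The effect of shNYNRIN differed between set 2 and set 1 by limma's test of that difference for 13 of the 37 histone genes, 12 of which are given here. Over all tested genes 20.4% were called for that difference, so 7 of 29 cluster genes is a share near the background. For 7 cluster genes the log2 fold change of set 2 exceeded that of set 1, by 1.41 for H4C3, 1.37 for H2AC8, 1.16 for H2BC21, 1.06 for H2BC8, 0.94 for H2BC4, 0.91 for H3C10 and 0.57 for H2BC12. Of these, H4C3 was below its controls in set 1 and above its control in set 2. Among the replacement genes given, the difference was 0.51 for H3-3B, 0.41 for H2AZ2, 0.20 for MACROH2A1 and 0.19 for H3-3A, and -0.24 for H2AZ1. H2AZ2 was called lower in set 1 and higher in set 2. The log2 fold change of NYNRIN also differed, by -0.85, and its part in these differences was not tested. Set 2 rests on 1 control library, and set and any other feature that separates the tables cannot be told apart. A shift shared by libraries of the same library-name number cannot be told apart from these differences either. By name numbers 1 and 2, H2AZ2 had 59.2 and 58.6 FPKM in shNYNRIN, against 61 (whole number) and 62.1 in shCTL. By 3 and 4 it had 71.7 and 72.3, against 70.9 and 65.2. H3-3B had 108 and 113 against 182 (whole number) and 180.4 FPKM by 1 and 2. By 3 and 4 it had 179 and 177, against 162 and 157.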

How the results depend on the processing

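Numbers of called histone genes depended on the processing. A filter of 10 FPKM left 10 histone genes, 2 of them cluster genes, where 37 were tested as reported. Of those 10, 7 were called in set 1 (13 of 37 as reported) and 7 in set 2 (17 of 37). For the difference between sets 7 of 10 were called (13 of 37), and for both sets 1 of 10 (0 of 37). The lower counts under this filter are thus counts among fewer genes and not a lower share called. Without the mean-variance trend 8 of 37 were called in set 1, and 8 of 35 with the libraries of set 1 alone. For both sets 4 were called with shCTL replicate 3 as deposited, 7 with 0.5 added to it and 18 as the mean of the set effects. Leaving out 1 library gave 5 to 8 calls in set 1, 7 to 17 in set 2, 9 to 13 for the difference and 0 to 13 for both sets, the last without shCTL replicate 4. Set 2 could not be estimated without that library. Of the calls reported, 2 of 13, 7 of 17 and 9 of 13 held with each library left out that could be. The 46 called results for single genes, NYNRIN included, kept their direction and side of the threshold 591 times under an alternative, lost the call 135 times and reversed 0 times. In sets 1 and 2 and their difference, 16 uncalled histone results passed the threshold 32 times under an alternative.

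The numbers in the sample titles and library names were not taken to pair the samples, since not every correlation of same-numbered libraries exceeded 0.1. Over 5395 genes, deviations from the group mean correlated at -0.179 to -0.137 for title numbers and 0.0989 to 0.166 for library-name numbers. The latter were all positive, and the lowest was just short of 0.1, so pairing by library name is not excluded. In set 1 the shNYNRIN libraries bear name numbers 1 and 2 and the shCTL libraries 3 and 4, and in set 2 the reverse. A shift shared by same-named libraries would enter the fold change of each set and cannot be told apart from a difference between sets. Deviations from the mean of group and table correlated at -0.0672 and -0.0576 for title numbers and -0.111 and -0.0163 for library-name numbers. A replicate block by title number left 6 calls in set 1, 6 in set 2 and 6 for the difference, and a median for the replacement genes of -0.0018 in set 2. A replicate block by library-name number, which could be fitted for both sets only, gave 16 calls, 13 higher and 3 lower, against 0 without it.

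The median log2 fold change of the cluster genes in set 1 (0.22) was 0.098 with a pseudocount of 5, 0.41 with the 10 FPKM filter and 0.20 to 0.33 with 1 library left out. In set 2 (0.50) it was 0.61 and 0.23 with pseudocounts of 0.1 and 5, 0.83 with the filter, 0.75 and 0.63 with shCTL replicate 3 as deposited and plus 0.5, and 0.38 to 0.53 with 1 library left out. That of the replacement genes in set 1 (-0.13) was -0.17 with upper-quartile scaling, -0.11 with quantile normalization and -0.15 to -0.11 with 1 library left out. In set 2 (0.012) it was -0.010, 0.059 and -0.0018 to 0.026 under the same changes, so its sign is not settled.

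The cluster sum as a percentage of the replacement sum was 19.99 and 19.1 in shNYNRIN sets 1 and 2 and 12.7 and 10.6 in shCTL sets 1 and 2. In the same order it was 12.7, 11.5, 7.90 and 6.24 with the 10 FPKM filter, 22.7, 21.4, 14.2 and 11.9 without H2AX, 24.8, 22.8, 15.004 and 13.002 without H2AZ1, and 11.9, 11.95, 7.93 and 7.24 without H2BC12. Cutting every library to whole numbers, with shCTL replicate 3 then included, gave 18.6, 18.1, 11.5 and 9.17, a change chosen after seeing the data. H2BC12 and H1-2 alone, also chosen then, gave 12.7, 11.5, 7.90 and 6.24. That is the same calculation as the 10 FPKM filter, which leaves only these cluster genes, and no separate check. With 1 library left out it was 19.2 to 20.8 and 18.7 to 19.5 in shNYNRIN and 12.5 to 12.8 in shCTL set 1. The shNYNRIN values were above the shCTL values of the same set under each of these changes. A pseudocount, scaling by 1 factor per library and the filter of 1 FPKM do not alter this percentage. The cause of these shifts was not tested.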

Other observations

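The 11 cluster genes whose longest GENCODE 29 transcript exceeds 1000 bases had a median log2 fold change of 0.22 in set 1 and 0.55 in set 2, with 2 and 6 called higher. The 16 with models of 1000 bases or fewer had 0.32 and 0.22, with 6 and 6 called higher. This difference between models was not tested.

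Of the 43 histone genes listed in the second table alone, 5 reached 1 FPKM in a library, the highest value was 2.39 FPKM for H2BC7, and 3 were at 0 in all 3 libraries with decimals.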
